A study of Mus musculus with 8 samples.

Results

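The transcripts of 48 genes of mitosis and the G2/M phase of the cell cycle were followed in single mouse hematopoietic cells. The list was fixed by gene name, all 48 were present among the 32285 genes counted, and every one was read in each of 6 single-cell libraries. The genes fall into 8 roles: cyclins with Cdk1 and their regulators (8 genes), mitotic kinases (6), the ubiquitin pathway (4), centromere, kinetochore and chromosomal passenger proteins (8), kinesins (7), spindle proteins (9), cytokinesis (3) and chromosome structure (3).

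Cells were enriched for c-Kit with magnetic beads and sorted by flow cytometry as Epcr+Lin-Sca-1+Kit+, the surface phenotype of hematopoietic stem cells. At P2, 2 days after birth, bone marrow, liver and spleen of wild-type mice gave 1 library each, with cells of 7 mice merged in each tissue. Also at P2, 2 Tppp3CreER LSLTdTomato pups received tamoxifen at P0. In that model a Cre recombinase that needs tamoxifen is made where Tppp3 is active and turns on the red reporter tdTomato. The pups' tdTomato-positive and tdTomato-negative cells of bone marrow and spleen were crossed over 2 tubes: tube 1 held the positive cells of pup 1 with the negative cells of pup 2, and tube 2 held the positive cells of pup 2 with the negative cells of pup 1. Antibody hashtags, short barcodes on antibodies, marked the pup and the tissue, so cells of each pup could be told apart within a tube. The last library came from wild-type E19 mice, about 19 days after fertilization; its title names bone marrow and its tissue field fetal liver, so its tissue is left unnamed here. The labels place the pooled P2 tissues, the E19 library and the tubes in batches 1, 2 and 3.

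A dividing cell makes most mitotic transcripts late, after DNA replication, and destroys many of their products at the end of division. Cyclin B with the kinase Cdk1 starts mitosis, Polo-like and Aurora kinases build the spindle, kinesins move chromosomes and microtubules, and the anaphase-promoting complex with Cdc20 and Ube2c ends mitosis by protein degradation. Adult blood stem cells divide rarely, whereas fetal and newborn ones are known to divide often, and the transcripts of these genes are widely used to tell dividing from resting cells.

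Mitotic genes share promoter motifs: CCAAT boxes, bound by NF-Y, and TTTGAA, the core of the cell cycle homology region. In the RefSeq promoter table for GRCm38.p6, 41 of the 48 genes had a promoter, and Aurkb, Tpx2, Smc4, Kif20a, Ccna2, Cdc25c and Dlgap5 did not. In the window from 250 bases before to 50 bases after the gene start, searched on both strands, TTTGAA occurred in 30 of the 41 genes (73.2%), against 20.2% of the 27025 genes in the table. CCAAT occurred in 32 genes (78.0%), against 41.1% of all genes. At least 2 CCAAT copies occurred in 24 genes (58.5%), against 13.3% of all genes. CCAAT and TTTGAA occurred together in 26 genes (63.4%), against 7.97% of all genes. These are matches of letters, not measured binding. Neither motif holds the other, although copies may overlap.

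The 200 bases before the RefSeq start are shown for a cyclin, a kinase, a ubiquitin enzyme and a topoisomerase that recur in the results, to set promoters with many and few motif copies side by side. They lie at chr13:100786487-100786686 on the minus strand for Ccnb1, chr7:122159235-122159434 on the plus strand for Plk1, chr2:164769729-164769928 on the plus strand for Ube2c, and chr11:99024190-99024389 on the minus strand for Top2a (GRCm38.p6, RefSeq). Each is written 5′ to 3′ along the gene, and capitals mark copies of both motifs on either strand.
Ccnb1: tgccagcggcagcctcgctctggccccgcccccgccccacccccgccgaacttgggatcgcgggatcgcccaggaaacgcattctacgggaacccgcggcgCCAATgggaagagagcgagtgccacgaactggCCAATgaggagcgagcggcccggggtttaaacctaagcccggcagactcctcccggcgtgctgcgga
Plk1: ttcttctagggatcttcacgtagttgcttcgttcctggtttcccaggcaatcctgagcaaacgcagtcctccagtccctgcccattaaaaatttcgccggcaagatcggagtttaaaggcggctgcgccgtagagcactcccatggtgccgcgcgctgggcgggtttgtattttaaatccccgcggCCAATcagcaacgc
Ube2c: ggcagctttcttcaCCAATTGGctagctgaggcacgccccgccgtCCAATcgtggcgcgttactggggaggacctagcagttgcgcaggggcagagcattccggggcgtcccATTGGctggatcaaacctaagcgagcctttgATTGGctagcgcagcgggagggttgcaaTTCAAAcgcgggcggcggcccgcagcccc
Top2a: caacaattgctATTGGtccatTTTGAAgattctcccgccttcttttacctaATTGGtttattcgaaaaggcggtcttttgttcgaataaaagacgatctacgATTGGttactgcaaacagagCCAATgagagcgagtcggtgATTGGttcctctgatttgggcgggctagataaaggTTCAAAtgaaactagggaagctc
Top2a carried 5 CCAAT copies, of which the nearest began 58 bases before the start, and TTTGAA at 179 and 23 bases before it. Ube2c carried 5 CCAAT copies and 1 TTTGAA, 29 bases before the start. Ccnb1 carried CCAAT at 99 and 67 bases before the start and Plk1 a single copy at 14 bases, with no TTTGAA in these 200 bases. In the longer window searched above, Plk1 did hold TTTGAA and Ccnb1 did not.

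Counts were raw unique molecular identifiers (UMIs), each standing for 1 captured transcript. The libraries held 42451 cell barcodes with 56010320 to 87254828 UMIs per library. Cells with at least 1000 genes, at least 2000 UMIs and at most 10% mitochondrial UMIs were kept, 37147 in all, and 28166 of them had at least 5000 UMIs. Those were thinned at random to 5000 UMIs each, so that the number of genes detected per cell did not follow depth. Median UMIs per kept cell were 20120 and 20492 in tubes 1 and 2 and 6523 to 8275 in the other libraries. The libraries shared 148 barcodes, which were kept because the libraries were separate reactions. A thinned cell with UMIs of at least 4 of 13 stem cell markers that passed no other class was called stem-gated. Other classes needed at least 3 of their own markers. The lymphoid-primed class was set aside where another class passed, so stem-gated cells may also carry its markers. This gave 13677 stem-gated cells: 1284 in P2 bone marrow, 207 in P2 liver, 1420 in P2 spleen, 2508 in tube 1, 1609 in tube 2 and 6649 in E19. They were 5.22% of the cells at that depth in P2 liver and 94.5% in tube 1, so the libraries held other cells too despite the shared sort. Among stem-gated cells, the stem cell factor Mecom was detected in 85.6% to 96.1% and Hlf in 77.3% to 94.3% over the libraries. Procr, which encodes the sorted surface protein Epcr, was detected in 9.89% to 19.8%. These genes are themselves among the 13 markers of the gate, so their shares partly follow from it and do not test it.

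Levels are given as CPM, a gene's UMIs divided by all UMIs of the summed cells of a library and scaled to one fixed total. CPM is not scaled by transcript length, so it compares 1 gene between samples. The members with the highest mean CPM over the 6 libraries were Top2a (592), which untangles replicated DNA, the proliferation marker Mki67 (566) and the condensin subunit Smc4 (371). Next came Cks2 (289) and Cks1b (194), which bind cyclin-dependent kinases, Ube2c (228), the kinetochore protein Cenpf (193), the passenger proteins Birc5 (190) and Cdca8 (189) and the centromeric histone Cenpa (171). The members with the lowest mean were Gtse1 at 9.71 CPM, Psrc1 at 15.3 CPM and Cdc25c, the phosphatase that activates Cdk1, at 17.0 CPM.

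All 48 genes together took 6190 CPM in P2 bone marrow (95% Poisson interval 6171 to 6209), 5557 CPM in P2 liver, 5942 CPM in P2 spleen, 6158 CPM in tube 1, 6880 CPM in tube 2 (6858 to 6902) and 3854 CPM in E19 (3840 to 3867). Within stem-gated cells the sums were 5898, 5296, 5460, 6026, 6238 and 3461 CPM in the same libraries. The 5 P2 libraries lay close together and the E19 library stood below them in both sets of cells. With 1 library per tissue and age there is no test between libraries, and the intervals cover counting error only, not the spread between animals.

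The P2 libraries differed from each other in which roles carried the sum. In kept cells, the chromosome structure genes took 1464 CPM in P2 bone marrow, 1384 in P2 liver and 1478 in P2 spleen, but 1873 in tube 1 and 2100 in tube 2. Kinesins likewise stood at 709 and 763 CPM in the tubes and 470 to 548 CPM in the pooled tissues. Cyclins and Cdk1 regulators went the other way, with 721 and 813 CPM in the tubes and 1045 to 1130 CPM in the pooled tissues. In stem-gated cells Mki67 had 710 and 763 CPM in the tubes, against 441 CPM in P2 bone marrow, 432 in P2 liver and 402 in P2 spleen. Cks2 had 177 and 163 CPM in the tubes, against 263, 246 and 251 CPM in those tissues. The mix of cell classes behind the kept-cell sums differed too. Of cells with at least 5000 UMIs, stem-gated cells were 94.5% and 70.1% in the tubes and 5.22% to 25.6% in the pooled tissues. The part of that mix in the role sums was not tested. The pups' genotype, tamoxifen, batch, cell depth and Cell Ranger version all changed together between the tubes and the pooled tissues and cannot be told apart.

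**Figure D1:**
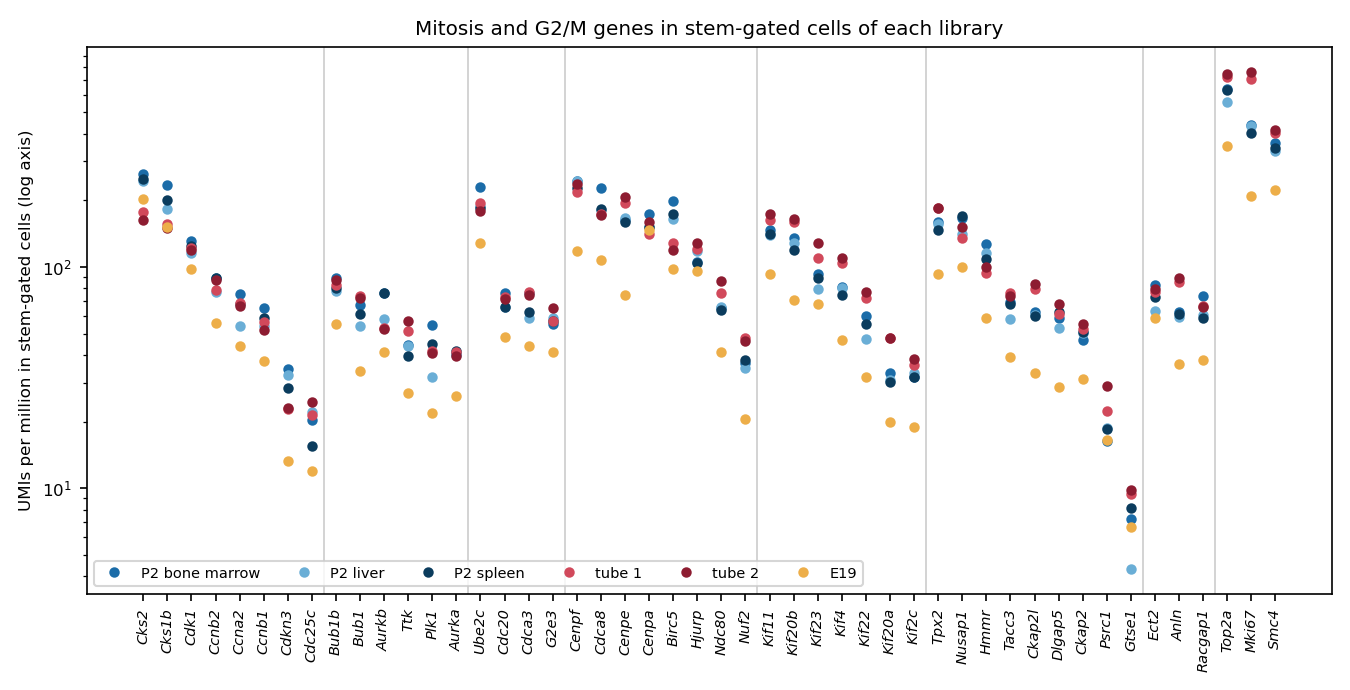
CPM of each of the 48 genes (log axis) in stem-gated cells, grouped by role, with 1 point per library. E19 is the lowest point for 43 of 48 genes, and the tubes lie above the pooled P2 tissues for Mki67 and below them for Cks2.

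Relative to E19, stem-gated cells of P2 carried more of nearly all of these transcripts. In P2 bone marrow 47 of 48 members were higher than in E19, where 50.9% of all 10547 genes with a mean of at least 5 CPM were. Of the members, 39 were over 1.5-fold higher, a size reached by 9.18% of those genes. The median log2 ratio of the members was 0.78, against 0.01 for all genes. Ratios of all genes, also those counted as over 1.5-fold, had 1 CPM added to both values, and the members' ratios did not. P2 liver had 47 members higher (58% of all genes) and 25 over 1.5-fold (8.29%), and P2 spleen had 48 higher (46.4%) and 32 over 1.5-fold (5.79%). Tube 1 had 46 members higher (67.6%) and 35 over 1.5-fold (15.2%), and tube 2 had 46 higher (70.6%) and 36 over 1.5-fold (17.7%). These 5 comparisons share the E19 library.

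Single genes spread widely around that median. Plk1, the Polo-like kinase, had 54.4 CPM in P2 bone marrow, 31.7 in P2 liver, 44.8 in P2 spleen, 41.7 in tube 1 and 40.8 in tube 2, against 21.8 CPM in E19. Cdkn3, a phosphatase that acts on cyclin-dependent kinases, had 34.8, 32.6, 28.3, 22.9 and 23.1 CPM in those libraries, against 13.3 CPM in E19. Ccnb1, cyclin B1, had 65.5, 54.2, 58.9, 56.4 and 51.7 CPM, against 37.4 CPM in E19. For these genes each P2 library lay above E19. Hjurp, the chaperone that loads Cenpa onto centromeres, differed less, with 105, 118, 104, 120 and 128 CPM in the P2 libraries, against 96.2 CPM in E19. Cks2 was higher than its 203 CPM in E19 in the pooled tissues and lower in both tubes. E19 was the lowest of the 6 libraries for 43 of 48 members, as it was for 31.6% of all genes. In all kept cells it was the lowest for 41 members, against 24.2% of 10617 genes. The 13 stem cell markers summed to 5113 CPM in stem-gated cells of E19, against 3050 to 4784 CPM in those of the P2 libraries. Whether this difference bears on the members was not tested. Age, batch, Cell Ranger version and, with the E19 tissue unresolved, tissue cannot be told apart here.

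Members were not spread evenly over the cells but came as a block. The number of members with a UMI in a thinned stem-gated cell had a peak at low counts and a second, broad group of cells with many. Cells with at least 12 members made up 50.7% in P2 bone marrow (95% exact binomial interval 47.9% to 53.5%), 40.1% in P2 liver (33.4% to 47.1%) and 48.9% in P2 spleen (46.2% to 51.5%). They made up 39.5% in tube 1 (37.6% to 41.4%), 39.0% in tube 2 (36.6% to 41.4%) and 29.3% in E19 (28.2% to 30.4%). E19 was the lowest here too. Cells with at most 4 members made up 24.5% in P2 bone marrow and 50.5% in E19. Without thinning, the shares with at least 12 members were 58.8%, 48.3%, 56.1%, 57.0% and 54.2% in the P2 libraries and 35.1% in E19. Cells near the limit, with 10 to 13 members, were 5.84% to 9.50% of a library. Cells with many members also held more RNA before thinning: their median was 8808 UMIs in P2 bone marrow, against 6419 UMIs in cells below 12, and 30748 against 18560.5 UMIs in tube 2.

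**Figure D2:**
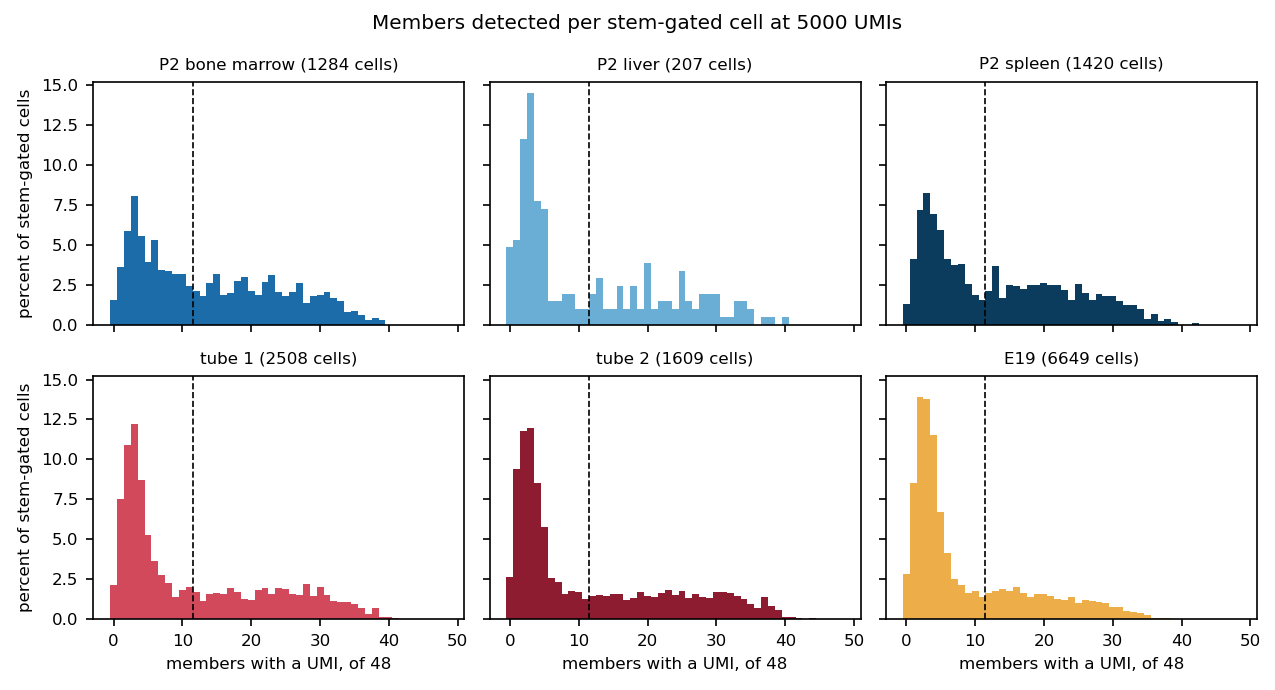
Percent of stem-gated cells (vertical axis) by the number of the 48 genes with a UMI after thinning to 5000 UMIs (horizontal axis), 1 panel per library. A peak at few members and a broad shoulder above 12 stand in each panel. The tallest bars are those of P2 liver (14.5% of cells at 3 members) and E19 (13.9% at 2 members).

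Other cell cycle genes placed these cells along the cycle. Stem-gated cells were binned by members detected (0 to 4, 5 to 11, 12 to 23 and 24 to 48), and genes on 3 lists that share no member were summed per thinned cell. The 40 other G2/M and mitosis genes climbed with the bins in every library, with 3.27, 8.06, 16.6 and 25.1 UMIs per cell in P2 bone marrow. The 30 S phase genes, which replicate DNA, did not: they had 14.9, 23.9, 21.5 and 9.70 UMIs in P2 bone marrow, and 8.68, 17.3, 19.1 and 8.05 UMIs in E19. In each of the 6 libraries they were highest in a middle bin, and the bin with most members held less than either middle bin. Pcna, the sliding clamp of the replication fork, was detected in 51.4%, 64.8%, 72.0% and 40.0% of the cells of these bins in P2 bone marrow. Its peak was also in a middle bin, but in that of 12 to 23 members, where the S phase list peaked at 5 to 11. The 13 G1 regulators changed little, with 8.05, 8.22, 7.18 and 7.23 UMIs. The bins rest on counts of the members in the same cells, so these values are a description.

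Some members were read in nearly all states of the cell and some only beside many others. For each gene, cells with at most 4 of the other 47 members were set against cells with at least 16. Hmmr, a spindle protein, was detected in 60.9% of cells with many other members and 0.43% of those with few, as a mean over the 6 libraries. Nusap1, which bundles microtubules, was detected in 70.7% and 1.07%, Kif2c, a kinesin that takes microtubules apart, in 27.2% and 0.33%, and Plk1 in 32.7% and 0.48%. Mki67 was detected in 96.2% and 10.7%. At the other end, Smc4 was detected in 91.0% of cells with many and still in 46.3% of cells with few, Hjurp in 58.5% and 23.9%, Cks1b in 71.5% and 27.6%, and Top2a in 95.9% and 25.7%. Thus UMIs of Smc4, Hjurp, Cks1b and Top2a were common in cells where most of the other members went undetected.

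Neutrophil-gated cells, 195 in tube 2 with a median of 8705 UMIs, are of a lineage whose mature cells do not divide. With UMIs summed over the group, the 48 genes took 5609 CPM in them, near the 6238 CPM in stem-gated cells of tube 2. As the mean of each cell's own CPM the values lay further apart, at 2868 CPM in neutrophil-gated and 4978 CPM in stem-gated cells. Mki67 had 828 CPM, against 763 CPM, and Ube2c had 294 CPM, against 179 CPM. The members were spread unevenly over these cells, which had a median of 2 members, and 80% had at most 4. Psrc1 was detected in 0.51% of them, Plk1 in 8.21%, Top2a in 19.0% and Mki67 in 24.6%, while Smc4 was detected in 45.1% and Hjurp in 51.8%. In stem-gated cells of tube 2 with few other members, Smc4 was detected in 55.7% and Hjurp in 27.5%. Among the neutrophil-gated cells 16.4% had at least 12 members, so the group mixes cells with few and with many and does not give a background level; how far free RNA contributed to any of these shares was not tested.

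Next, marker-gated classes were set against stem-gated cells, with UMIs summed per library and class and library as a block (edgeR quasi-likelihood test, Benjamini-Hochberg adjustment over 15238 genes). Each class used the same stem-gated sums, so the comparisons are not independent of each other. Log2 fold changes below are class over stem-gated cells. They come from sums rescaled with TMM factors, which CPM does not use, so their sizes can differ from CPM ratios. Unless said otherwise every called value has an adjusted p under 0.05.

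Erythroid-gated cells carried more mitotic transcripts than stem-gated cells. Of the 48 members 43 rose, where 33.1% of all genes did, none fell, and the median log2 fold change was 0.97, against -0.14 for all genes. At least 12 members were detected in 95.3% of erythroid-gated cells of P2 bone marrow, 92.9% of P2 liver, 94.7% of P2 spleen, 99.1% of tube 2 and 90.4% of E19. All 8 cyclins and Cdk1 regulators, all 6 kinases, all 4 ubiquitin pathway genes and all 3 chromosome structure genes rose. Cyclin A2 (Ccna2) had 179, 182, 176, 242 and 194 CPM in erythroid-gated cells of these libraries, against 75.1, 54.2, 68.4, 66.4 and 44.1 CPM in stem-gated cells. The 2 sets did not overlap, and the log2 fold change was 2.13 ± 0.14 (SE; adjusted p = 1.43e-11, edgeR). Ccnb1 followed with 1.92, Cdca3, which serves protein degradation at mitotic entry, with 1.82, Birc5 with 1.79, Plk1 with 1.78, Cks2 with 1.77, Hmmr with 1.66 and Mki67 with 1.66. Ccnb2 rose by 1.60, the Aurora kinase Aurka by 1.59, Ube2c by 1.55 and Gtse1 by 1.54. Of the roles' other examples, Cdc20 rose by 1.49, Cdk1 by 1.07, Smc4 by 1.03, the cytokinesis scaffold Anln by 0.95, Aurkb by 0.91, the spindle motor Kif11 by 0.83, Top2a by 0.72 and Cenpf by 0.62. The members that did not pass were Ndc80, Hjurp (0.14), Kif23 (0.16), Psrc1 and Ect2 (0.04).

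Other lists moved in the same cells. Of the other 40 G2/M genes 34 rose and 2 fell, and one of the 2 was Cep55, an abscission protein, at -3.51 ± 0.16 (adjusted p = 4.50e-14, edgeR). Smc2 (1.47) and the kinetochore gene Ska1 (1.52) rose. Of the 30 S phase genes 28 rose, led by cyclin E1 (Ccne1, 3.57), the nucleotide reductase subunit Rrm2 (2.95) and the licensing factor Cdt1 (1.62). Of the 13 G1 regulators 4 rose and 6 fell. The kinase inhibitor Cdkn2c rose by 3.74 and Rb1 by 1.94, while the inhibitor Cdkn1c fell by 3.63.

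B-gated cells gave a similar count of members. Here 44 rose, where 18.6% of all genes did, and 1 fell, where 24.8% did, with a median of 0.88 against -0.09 for all genes. The leading members were Ccna2 (1.499), Cdkn3 (1.46), Gtse1 (1.45), Cdca3 (1.44), Ccnb1 (1.41), Ube2c (1.31), Plk1 (1.31), Mki67 (1.27), Birc5 (1.09), Aurkb (1.08), Nusap1 (1.08) and Tacc3 (1.07). Ube2c had 498 CPM in B-gated cells of P2 bone marrow, 394 in P2 liver, 251 in P2 spleen and 407 in E19, against 230, 188, 185 and 128 CPM in stem-gated cells. Psrc1, a spindle protein, was the member that fell, with 9.3, 9.3, 6.8 and 14.9 CPM in B-gated cells, against 16.3, 18.7, 18.4 and 16.5 CPM in stem-gated cells (-0.62; adjusted p = 0.0305, edgeR). That call was lost with DESeq2, with thinned sums, and without the P2 bone marrow, liver or spleen library. G2e3 (0.10), Hjurp (0.10) and Cdc25c (0.33) did not pass. Of the other G2/M genes 34 of 40 rose, led by Cdc25b (1.89), Sgo2a (1.10) and Spag5 (0.99), and of the S phase genes 17 of 30 rose, led by Rrm2 (2.17), Ccne1 (1.53) and Uhrf1 (1.24). Of the G1 regulators 6 rose and 3 fell, with Cdkn2c at 3.97, Ccnd3 at 1.23 and Cdkn1c at -2.82.

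**Figure D3:**
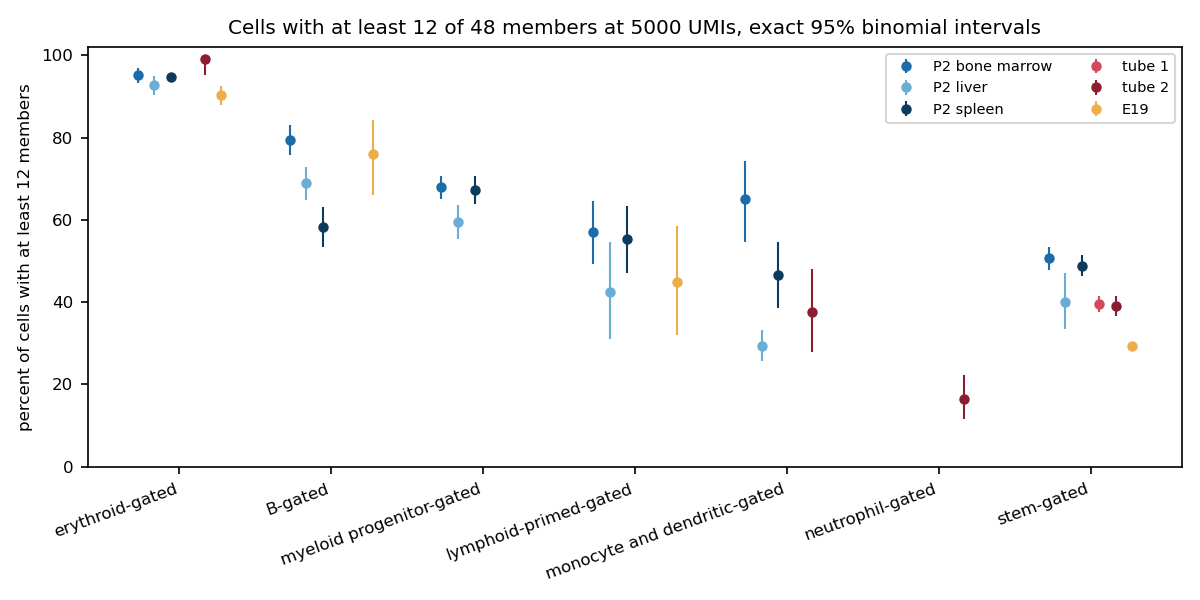
Percent of cells with at least 12 of 48 members after thinning (vertical axis), by marker-gated class and library, with exact 95% binomial intervals as bars. Erythroid-gated cells lie above 90% in each library, and the neutrophil-gated cells of tube 2 lie at 16.4%.

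Myeloid progenitor-gated cells, found in the pooled P2 tissues, had members called in both directions; a difference between roles was not tested. Of the 48 members 20 rose, where 23.9% of all genes did, and 5 fell, where 28% did, with a median of 0.19 against -0.11 for all genes. Of the cyclins and Cdk1 regulators 7 of 8 rose, among them Cks2 (0.94), Ccna2 (0.85), Ccnb1 (0.76) and Cks1b (0.66), and of the kinases 4 of 6, among them Plk1 (0.82) and Aurka (0.79). Cdca3 (1.05), Gtse1 (0.88), Tacc3 (0.76), Cdc20 (0.70) and Birc5 (0.68) rose as well. Birc5 differed less in CPM, with 224 and 187 CPM in P2 bone marrow and liver, against 199 and 166 CPM in stem-gated cells. How far the calls rest on the TMM factors was not tested. Of the 7 kinesins none rose and Kif23, a motor of the central spindle, fell by 0.37. Cenpf fell by 0.59, with 121, 99.5 and 128 CPM in the myeloid progenitor-gated cells of bone marrow, liver and spleen, against 244, 245 and 227 CPM in stem-gated cells. Nusap1 fell by 0.66, the ubiquitin ligase G2e3 by 0.60 and Psrc1 by 1.32. Psrc1 had 6.8, 3.4 and 5.7 CPM in them, against 16.3, 18.7 and 18.4 CPM in stem-gated cells. Without the P2 liver library 3 members fell. Top2a (0.01), Ttk (0.02) and Cenpa (0.03) did not pass, although Top2a had 451 CPM in P2 bone marrow, against 641 CPM in stem-gated cells. At least 12 members were detected in 67.9%, 59.5% and 67.3% of these cells, above the stem-gated shares, whereas the summed CPM of the members was 5118, 4691 and 5047, below the stem-gated sums, so no order is read from either. Of the other G2/M genes 10 rose and 4 fell, with Cenpw at 1.20, Mybl2 at 1.19 and Cdc25b at -1.36. Of the S phase genes 17 rose and none fell, led by Rrm2 (1.81), Ccne1 (1.09) and Mcm5 (0.69). Of the G1 regulators 2 rose and 5 fell, with Cdkn1c at -4.29, Cdkn1b at -1.06 and Cdk6 at 0.95.

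In monocyte and dendritic-gated cells 23 members rose, where 24.7% of all genes did, and Psrc1 fell, where 24.9% did, with a median of 0.32 against -0.06 for all genes. Cdkn3 rose by 1.24, Racgap1 by 0.85, Cdca3 by 0.83, Plk1 by 0.83, Ube2c by 0.83, Kif23 by 0.79, Ccna2 by 0.77, Ccnb1 by 0.74, Ccnb2 by 0.74, Tacc3 by 0.72 and Birc5 by 0.70, while Psrc1 fell by 1.13. Cdc25c (0.00), Cks2 (0.03) and Kif20b (-0.03) did not pass. The libraries differed in this class, with at least 12 members in 64.9% of the cells of P2 bone marrow, 29.3% of P2 liver, 46.5% of P2 spleen and 37.5% of tube 2. This share was above that of stem-gated cells in P2 bone marrow and below it in P2 liver, P2 spleen and tube 2. The members summed to 7326, 4087, 5455 and 7455 CPM in these libraries, against 5898, 5296, 5460 and 6238 CPM in stem-gated cells. The calls thus do not stand for a rise in every library. Without P2 bone marrow 15 members rose and with thinned sums 13. Of the other G2/M genes 7 rose and 1 fell, with Wee1 at -0.91, Pttg1 at 0.72 and Arhgap11a at 0.54. Of the S phase genes 2 rose and 6 fell, with Rrm2 at 0.96, Prim1 at -0.70 and Pola1 at -0.64. Of the G1 regulators 6 rose and 4 fell, with Cdkn2c at 3.98, Cdkn1b at 1.00 and Cdkn1c at -3.85.

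Lymphoid-primed cells, gated by lymphoid genes where no other class passed, had a median of 0.26 over the members, against -0.10 for all genes. Of the members 7 rose, where 4.06% of all genes did, and none fell (7.85% of genes). They were Kif23 (0.65; adjusted p = 0.000315, edgeR), Aurka (0.63), Plk1 (0.61), Ccnb1 (0.58), Ube2c (0.48), the checkpoint kinase Bub1b (0.41) and Kif11 (0.40). Kif23 had 119, 127, 135 and 116 CPM in the 3 pooled P2 tissues and E19, against 92.5, 79.2, 88.7 and 68.1 CPM in stem-gated cells of those libraries. Within each of these libraries the lymphoid-primed value was the higher, but the stem-gated cells of tubes 1 and 2, also in the fit, had 109.9 and 128 CPM, so the 2 sets overlapped. The count was 2 without E19, 2 without P2 spleen, 3 without P2 bone marrow, 3 without P2 liver, 4 without tube 2, 2 with no library block and 11 with DESeq2. Racgap1, Ttk and Ndc80 had values of -0.01, 0.01 and -0.01. At least 12 members were detected in 57.1% of these cells in P2 bone marrow, 42.5% in P2 liver, 55.3% in P2 spleen and 45.0% in E19. Of the other G2/M genes Ncapd2 rose (0.40) and Wee1 fell (-0.49), with Arhgap11a at 0.32 not passing. No S phase gene passed, with Mcm7 at 0.36, Mcm5 at 0.26 and Tyms at -0.33. Of the G1 regulators Cdk6 (0.83) and Cdkn1a (1.64) rose and Cdkn1c (-2.31) fell.

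**Figure D4:**
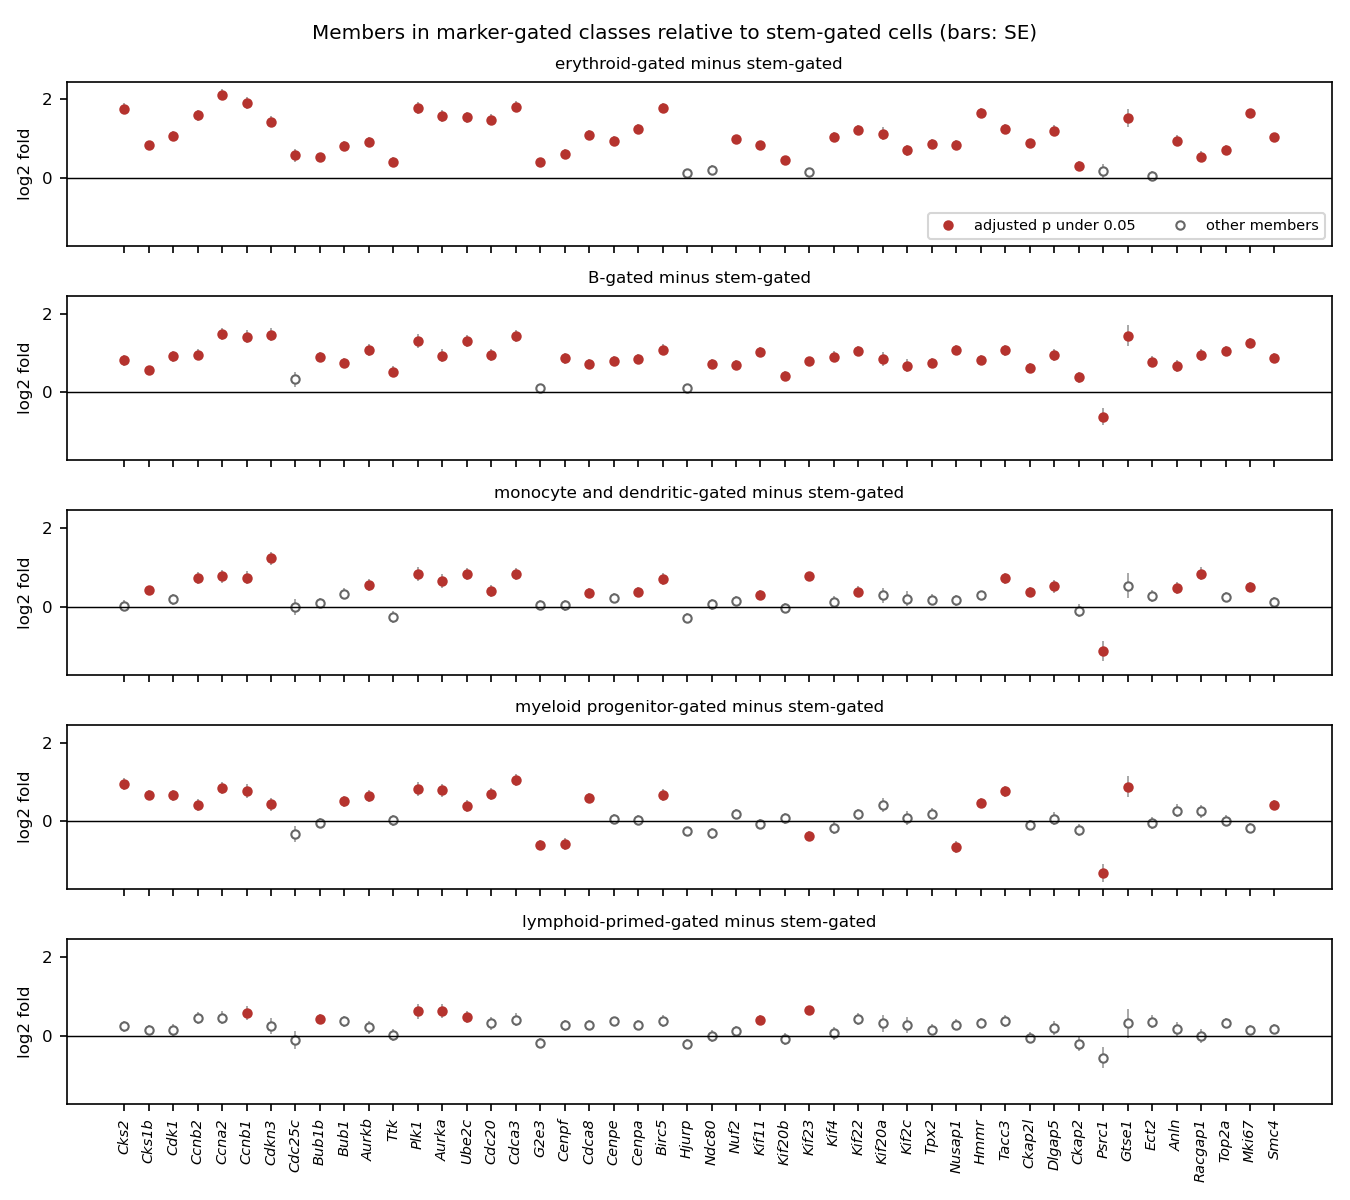
Log2 fold change of each member in 5 marker-gated classes over stem-gated cells, with SE bars; filled points have an adjusted p under 0.05. Erythroid-gated and B-gated cells have 43 and 44 filled points above 0, and lymphoid-primed cells have 7.

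Bone marrow and spleen were compared within stem-gated P2 cells, using the pool and the tdTomato-negative cells of each pup (3 sources, batch as a term). No member was called, and no gene of 14281 tested was (0% higher, 0% lower; edgeR quasi-likelihood test, Benjamini-Hochberg), while 340 genes had an unadjusted p under 0.05 and DESeq2 called 4 genes and no member. The members' log2 fold changes, bone marrow over spleen, lay between -0.19 and 0.14 with a median of -0.04, against -0.01 for all genes. Tpx2, Kif20b and Mki67 were nearest 0. The same animals gave both tissues, and with the source as a block no member was called either. Cells with at least 12 members made up 50.7%, 45.0% and 38.2% of bone marrow cells of the pool, pup 1 and pup 2, against 48.9%, 42.6% and 47.7% of spleen cells. Pup 1 gave only 100 of these bone marrow cells, against 1284 from the pool and 1302 from pup 2. The difference was 1.83 and 2.37 percentage points in the pool and pup 1 and -9.45 in pup 2. Its mean was -1.75 points (2-sided exact permutation test, p = 0.7, smallest possible 0.1). The second hashtag rule, which subtracts each hashtag's background, gave 312 and 1349 bone marrow cells of pups 1 and 2. Of these 24.7% and 37.9% had at least 12 members, against 42.7% and 41.4% of the pups' spleen cells. The differences were then -17.98 points in pup 1 and -3.47 in pup 2, with a mean of -6.54 (p = 0.5, same exact test), so the sign for pup 1 turned with the rule. Under it the members' median log2 fold change was -0.19 and all 48 lay below 0, with no member called. Of the other 40 G2/M genes, 30 S phase genes and 13 G1 regulators none passed; Sgo1 stood at -0.26, Cenpw at -0.32, Spc25 at -0.15, Hells at -0.18, Ccne2 at -0.18, Cdt1 at -0.13, Ccnd1 at -0.37, Cdkn1a at 0.41 and Ccnd2 at -0.17.

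The last comparison set tdTomato-positive against tdTomato-negative stem-gated cells of the 2 pups. A cell was assigned to a pup where a single hashtag lay above its own background and held at least 3 times the next. This left 32 positive cells of pup 1 and 29 of pup 2, against 1254 and 2042 negative cells. The reporter's transcript was not among the genes counted, so the sort itself was not checked by RNA. The gene list was drawn up with earlier results of this comparison known, so its direction here is not independent evidence.

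Summed over the members, positive cells had 2520 CPM (pup 1) and 3553 CPM (pup 2), against 6633 and 6310 CPM in negative cells. Of 48 members 25 fell, where 0.275% of 13841 genes did (with DESeq2 40, where 0.986% did; with no low-count filter 44, 1.58%; with doublets removed 34, 0.543%), and none rose, where 0.0795% did (edgeR quasi-likelihood test, Benjamini-Hochberg). All 48 log2 fold changes lay below 0, with a median of -1.21, against -0.02 for all genes. Of the cyclins and Cdk1 regulators 6 of 8 fell, of the kinases 2 of 6, of the ubiquitin pathway 3 of 4, of the centromere and passenger proteins 5 of 8, of the kinesins 4 of 7, of the spindle proteins 3 of 9, of the cytokinesis genes 1 of 3 and of the chromosome structure genes 1 of 3.

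Ube2c had 30.6 and 52.1 CPM in positive cells of pups 1 and 2, against 193 and 207 CPM in negative cells (-2.33 ± 0.18 SE; adjusted p = 0.00462, edgeR). Cenpf had 43.7 and 73.7 CPM in positive cells, against 252 and 232 CPM in negative cells (-2.10 ± 0.17; adjusted p = 0.00462, edgeR). For both genes the pups' positive values lay well under the negative ones. Ccnb1 had 8.74 and 19.8 CPM, against 55.6 and 59.3 CPM in negative cells, from 4 and 11 UMIs in the positive cells. Plk1 rested on 1 and 6 UMIs in positive cells and Cdkn3 on 2 and 1, so their fold changes of -2.75 and -3.14 depend on a handful of transcripts. Cdc20, Hmmr, Kif2c, Kif22, Ccnb2, the kinetochore motor Cenpe and Ckap2l stood at -2.27, -2.27, -2.24, -2.10, -1.63, -1.60 and -1.498. Birc5 (-1.40), Kif11 (-1.29) and Top2a (-1.004) fell by less, and Aurka (-1.29), Aurkb (-1.22), Anln (-1.20), Cdk1 (-1.03), Mki67 (-1.02) and Smc4 (-0.71) did not pass. Gtse1 (-0.12), Hjurp (-0.28) and G2e3 (-0.60) were nearest 0. Hjurp had 111 and 113 CPM in positive cells, against 133 and 124 CPM in negative cells, so those values lay side by side where Ube2c and Cenpf were far apart.

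Of the other 40 G2/M genes 5 fell and none rose, with Prc1 at -1.37, Knl1 at -1.16 and Ncapd2 at -1.15. Of the 30 S phase genes none passed, with Rrm2 at -0.93, Rrm1 at -0.47 and Pola1 at -0.30, and of the 13 G1 regulators none, with Cdk4 at -0.48, Cdk6 at -0.39 and Ccnd2 at 0.34. With pup as a block 29 of the other G2/M genes fell, the reductase genes Rrm1 and Rrm2 fell (-0.48 and -0.94), Cdk4 and Cdk6 fell (-0.48 and -0.39) and Ccnd2 rose (0.34). Whether the G2/M genes differed from the S phase genes was not tested. At least 12 members were detected in 12.5% of positive cells of pup 1 and 24.1% of pup 2, against 42.8% and 41.7% of negative cells. The mean difference was -23.9 points (2-sided exact permutation test, p = 0.333, the smallest that 2 against 2 can give).

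The calls changed with how positive cells were assigned and with the choice of negative cells. With the second hashtag rule, chosen after the data were seen, there were 55 and 80 positive cells. Their summed members were 5427 and 5323 CPM, against 6279 and 6022 CPM in negative cells. No member was then called, none of 14225 genes was, 16 members had an unadjusted p under 0.05, and the median fold change was -0.26, with 47 of 48 still below 0. The share with at least 12 members was 27.3% and 37.5%, against 39.0% and 39.4%. Positive cells had medians of 12936.5 and 17806 UMIs, against 24082.5 and 20541 UMIs in negative cells. With negative cells matched to them in UMIs, which left 160 and 145 negative cells, no member was called, the median was -0.30 and 40 members lay below 0, while Mki67, Top2a and Cdk1 stood at 0.013, 0.027 and 0.063. Since cells with many members held more UMIs, matching on UMIs also selects on the members, and depth, cell state and the smaller number of cells cannot be told apart here. With both the matching and the second rule the median was -0.01 and 25 members lay below 0. With thinned sums 5 members fell (0.103% of genes), of which 3 were among the 25, while the median was -1.24 with all 48 below 0, and with all kept cells in place of stem-gated ones none fell (median -1.10). Leaving out the positive cells of pup 1 ended the calls (0 members, median -1.04), and leaving out those of pup 2 left 11 (0.124% of genes), of which 9 were among the 25. Without pup 1's negative cells 38 members fell (1.45% of genes), and without those of pup 2 it was 41 (1.22%), the 25 among them both times. The pups pair the samples, and with pup as a block 44 members fell (2.56% of genes), the 25 among them. With the block and the second hashtag rule 10 fell (1.64% of genes), 9 of them among the 25.

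Other measures moved with the same groups, and their part in the result was not tested. The strict hashtag rule assigned 86.4% of tube 1 and 86.8% of tube 2 stem-gated cells with at least 12 members, against 80.3% and 75.2% of those with fewer. Stem cell markers summed to 6064 and 5944 CPM in positive cells, against 4650 and 4182 CPM in negative cells, with none of 13 at 0. Neutrophil markers summed to 6.56 and 101 CPM in positive cells, against 75.4 and 6.77 CPM in negative cells; the higher values belong to tube 2, which held the neutrophil-gated cells. Bone marrow supplied 34.4% and 65.5% of positive cells, against 7.97% and 63.8% of negative cells. Over all kept cells that the strict rule assigned, gated or not, Xist was detected in 92.1% of 38 positive and 93.2% of 1769 negative cells of pup 1, and in 13.3% of positive against 0.372% of negative cells of pup 2. The positive cells of pup 2 shared a tube with pup 1 cells, and 4 of 30 carried Xist, while 29 of the 30 carried a Y-linked transcript.

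**Figure D5:**
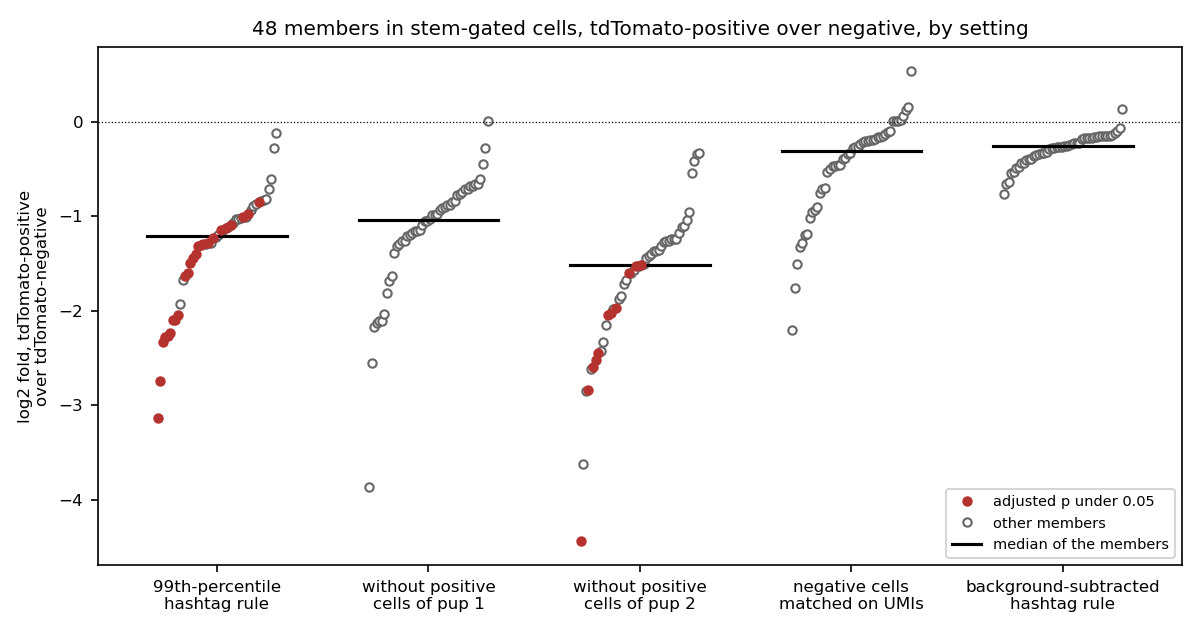
Log2 fold change of the 48 members, tdTomato-positive over tdTomato-negative stem-gated cells (vertical axis), under each setting (horizontal axis); filled points have an adjusted p under 0.05 and the bar is the median. The median lies at -1.21 with the strict hashtag rule and -0.26 with the background-subtracted rule. The background-subtracted rule together with matched depth is not drawn.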

How the data were processed

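Droplet single-cell libraries were analysed from the raw UMI count matrices as the authors deposited them, whole numbers per gene and cell with no normalization. Per the file headers, Cell Ranger 7.0.0 made the matrices of the pooled P2 tissues, version 7.1.0 that of E19 and version 8.0.1 those of both tubes. The build, mm10, is given by the submitters' processing notes, which list version 7.0.0 alone. Hashtag counts stand in the tubes' matrices. The members, roles and lists were chosen with earlier results of these data known, as were the comparisons; markers were fixed by design and gate thresholds were set after seeing the data.

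Cells were filtered as stated, thinned with a fixed seed and gated. Doublets were kept, and removed as an alternative (Scrublet scores in scanpy 1.11.5, 0.8% of barcodes per 1000 barcodes). UMIs were summed per library, pup, tissue or class, with at least 50 cells for a class sum. Sums were tested with edgeR 4.0.16 (TMM, filterByExpr, quasi-likelihood, R 4.3.3, limma 3.58.1) and Benjamini-Hochberg adjustment over all genes tested at 0.05, with DESeq2 1.42.0 as an alternative. The procedure was tested on simulated data. Shares carry exact 95% binomial and CPM exact Poisson intervals (scipy 1.17.1). The strict hashtag rule took cells with 1 hashtag above a threshold, the 99th percentile of that hashtag among cells led by another, and at least 3 times the next. The second rule subtracted each hashtag's background (its median in those cells) and asked for over 50 counts and the same ratio. Each pooled P2 library merged 7 mice that cannot be told apart, so p-values measure the spread between these libraries and pups.

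Same-numbered sums come from the same pup or pool, which pairs them. Deviations from group means correlated within pups at 0.21 for the tdTomato comparison (7258 genes) and within sources at 0.61 to 0.76 for bone marrow against spleen (11136 genes). The pool and the pups are different batches, and batch was not removed from these deviations. The values for bone marrow against spleen therefore cannot separate pairing by animal from batch.

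Genes named with values are the 10 members with the highest and the 3 with the lowest mean CPM, 14 members that stand for the roles, the members past the threshold in a comparison (the 12 with the largest change where more passed), the 3 nearest 0, and the 3 genes with the lowest adjusted p in each other list. Those named for the share of cells detected, for role contrasts or for the E19 comparison were chosen after their values were seen. Other alternatives left out each sum or library, the low-count filter, thinning or the block, or used a stricter gate, all kept cells or matched depth.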

Additional observations from a re-analysis of the deposited data

How the results depend on the processing

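The precision was limited by 61 tdTomato-positive cells, by 1 library per tissue and age, and by the marker gates, whose thresholds were set after the data were seen. For tdTomato-positive over negative, the 25 members that fell became 40 with DESeq2, 44 with no low-count filter, 44 with the replicate block, 10 with the replicate block and the background-subtracted hashtag rule (the second rule), 5 with thinned sums, and 0 in all kept cells, with the second rule, with matched depth, with matched depth and the second rule, or with thinned sums and the second rule. Leaving 1 sum out gave 0 to 41. The filter and DESeq2 shifted the median of all genes there, to -0.29 and 0.23. No member was called for bone marrow over spleen in any alternative run, the replicate block included. The combinations of settings were chosen after seeing the data. With the replicate block the other G2/M genes that fell in tdTomato-positive cells went to 29, against 5 without it, the S phase genes to 2, against 0, and the G1 regulators to 1 higher and 2 lower, against 0.

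The member that fell in B-gated cells was lost (0) with DESeq2 and thinned sums, and leaving 1 library out gave 0 to 1. In lymphoid-primed cells 1 member fell with the stricter gate, and the 7 that rose became 11 with DESeq2, 2 with no library block and 2 to 9 leaving 1 library out. In monocyte and dendritic-gated cells 2 fell with doublets removed, 2 with the stricter gate and 2 with thinned sums, with 1 to 2 leaving 1 out, and 13 rose with thinned sums, with 15 to 23 leaving 1 out. In myeloid progenitor-gated cells 3 to 7 fell leaving 1 out. The erythroid-gated counts moved by less than 1.5 times in each alternative run. Where a cause is not named, the cause was not tested.

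The share of cells with at least 12 members, in percent, was 33.96 (P2 bone marrow), 27.1 (P2 liver), 30.99 (P2 spleen), 28.7 (tube 1), 28.8 (tube 2), 17.3 (E19) at 2500 UMIs and 58.8 (P2 bone marrow), 48.3 (P2 liver), 56.1 (P2 spleen), 56.98 (tube 1), 54.2 (tube 2), 35.1 (E19) without thinning. With at least 8 members it was 62.9 (P2 bone marrow), 58.6 (P2 spleen), 46.9 (tube 1), 45.2 (tube 2), 36.2 (E19), and with at least 24 it was 21.8 (P2 bone marrow), 18.8 (P2 liver), 19.6 (P2 spleen), 20.4 (tube 1), 21.1 (tube 2), 10.2 (E19). Over all cells with at least 5000 UMIs it was 66.8 (P2 bone marrow), 59.4 (P2 liver), 68.3 (P2 spleen), 41.0 (tube 1), 40.3 (tube 2), 37.2 (E19), and the stricter gate gave 37.2 (tube 1). E19 was the lowest in the settings that gave a value for each library. The difference between bone marrow and spleen was 0.086 points at 24 members, -6.54 with the second rule and -3.81 to 2.10 leaving 1 source out. Summed member CPM was 6275 (P2 bone marrow), 5719.7 (P2 liver), 6332 (P2 spleen), 6928 (tube 2), 4252 (E19) in cells with at least 5000 UMIs and 5916 (P2 bone marrow), 4727 (P2 liver), 4983 (P2 spleen), 4839 (tube 1), 5176 (tube 2), 2859.9 (E19) as the mean of each cell's own CPM.

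Log2 fold changes of single members changed sign as follows, mostly near 0. For bone marrow over spleen, Tpx2 (0.0009) was -4.05e-05 with DESeq2, -0.17 with the second rule, -0.0111 with no low-count filter, -0.00565 with the replicate block, -0.18 with the replicate block and the second rule, -0.0415 with thinned sums, and between -0.0901 and 0.11 leaving 1 out. Kif20b (0.00288) was -0.0101 in all kept cells, -0.14 with the second rule, -0.00849 with no low-count filter, -0.00401 with the replicate block, -0.14 with the replicate block and the second rule, and between -0.0834 and 0.13 leaving 1 out. Mki67 (0.0048) was -0.0104 in all kept cells, -0.18 with the second rule, -0.00148 with no batch term, -0.00882 with no low-count filter, -0.00238 with the replicate block, -0.18 with the replicate block and the second rule, -0.0188 with thinned sums, and between -0.0923 and 0.11 leaving 1 out. For B-gated over stem-gated, G2e3 (0.10) was -0.10 with the stricter gate. For erythroid-gated over stem-gated, Ect2 (0.0394) was -0.0774 with DESeq2, and between -0.0505 and 0.0827 leaving 1 out. For lymphoid-primed-gated over stem-gated, Racgap1 (-0.00947) was 0.0625 with DESeq2, 0.0408 with doublets removed, 0.25 with the stricter gate, and between -0.0928 and 0.14 leaving 1 out. Ttk (0.0104) was -0.0448 with no low-count filter, -0.0664 with no library block, -0.012 with the stricter gate, and between -0.0817 and 0.12 leaving 1 out. Ndc80 (-0.0135) was 0.0709 with DESeq2, 0.0235 with doublets removed, 0.19 with the stricter gate, 0.25 with thinned sums, and between -0.0363 and 0.0726 leaving 1 out. For monocyte and dendritic-gated over stem-gated, Cdc25c (-0.00324) was 0.0362 with DESeq2, 0.0381 with doublets removed, 0.0893 with no library block, and between -0.13 and 0.21 leaving 1 out. Cks2 (0.03) was -0.0207 with no low-count filter, -0.093 with thinned sums, and between -0.10 and 0.18 leaving 1 out. Kif20b (-0.0327) was 0.0546 with no library block, and between -0.15 and 0.0321 leaving 1 out. For myeloid progenitor-gated over stem-gated, Top2a (0.0123) was -0.0549 with DESeq2, -0.0282 with doublets removed, -0.0201 with no library block, -0.0103 with the stricter gate, and between -0.0707 and 0.10 leaving 1 out. Ttk (0.0245) was -0.0394 with DESeq2, -0.0117 with doublets removed, -0.0577 with no library block, and between -0.0622 and 0.11 leaving 1 out. Cenpa (0.0275) was -0.0367 with DESeq2, -0.00227 with doublets removed, and between -0.051 and 0.0927 leaving 1 out. For tdTomato-positive over negative, Plk1 (-2.75) was 0.18 with matched depth and the second rule. Ckap2l (-1.498) was 0.0936 with matched depth and the second rule. Gtse1 (-0.12) was 0.0805 in all kept cells, 0.13 with the second rule, 0.55 with matched depth, 0.32 with matched depth and the second rule, 0.15 with the replicate block and the second rule, and between -0.33 and 0.00679 leaving 1 out. Hjurp (-0.28) was 0.13 with matched depth, 0.10 with matched depth and the second rule, 0.0266 with thinned sums and the second rule. Mki67 (-1.02) was 0.0133 with matched depth, 0.12 with matched depth and the second rule. Top2a (-1.004) was 0.0267 with matched depth, 0.12 with matched depth and the second rule. Cdk1 (-1.03) was 0.0627 with matched depth, 0.16 with matched depth and the second rule, 0.0263 with thinned sums and the second rule. Aurkb (-1.22) was 0.12 with thinned sums and the second rule. Kif11 (-1.29) was 0.14 with matched depth and the second rule. Smc4 (-0.71) was 0.0184 with matched depth and the second rule.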
